A study of Homo sapiens with 42 samples.

Results

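Cholesterol synthesis and uptake were followed through 28 genes, picked by gene symbol from the 57820 genes of the deposited tables and found in the tables of all 5 cell lines. The list holds 7 enzymes of the early mevalonate steps, 11 enzymes of the branch that leads to sterols, 5 regulators, and 5 genes of sterol transport, lipid synthesis and receptor turnover. RNA had been sequenced from 42 samples of 5 human B-cell acute lymphoblastic leukaemia lines, to ask how NSD2, a methyltransferase of lysine 36 on histone H3, and its E1099K substitution change these cells. In Reh and 697, which were engineered to overexpress NSD2, the arms carried the E1099K mutant (EK), wild-type NSD2 (WT) or an empty vector (EV), in 2 replicates of each arm for Reh and 3 for 697. The other lines, RS411 (also RS4;11), RCH (also RCH-ACV) and SEM, carried short hairpin RNAs in arms sh2 and sh5 or a non-targeting control (NT), with 3 replicates per arm. The series text gives sh2 as the NSD2 knockdown and sh5 stands only in the sample titles. Each arm is an engineered derivative of 1 line, all cells were grown in RPMI1640 with foetal bovine serum, and the labels name no separate cultures, so a p-value here measures no more than the spread of these samples, and that spread may be technical.

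Cells make cholesterol from acetyl-CoA through mevalonate and isoprenoid diphosphates to squalene, which is closed into lanosterol and then trimmed to cholesterol. The pathway is driven by the SREBP transcription factors, encoded by SREBF1 and SREBF2: when sterols in the endoplasmic reticulum run low, SCAP escorts them to the Golgi for cleavage, and when sterols are ample the INSIG proteins hold SCAP back. Many genes of the pathway, SREBF2 and INSIG1 included, are themselves SREBP targets. FASN and SCD, which build and desaturate fatty acids, are targets as well, while MYLIP, an E3 ubiquitin ligase induced by oxysterols through LXR, marks lipoprotein receptors for degradation.

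Depth ran from 21876505 to 67651596 reads assigned to genes per library, and from 23688482 to 27244031 in Reh. Levels are counts scaled to library size (CPM, TMM-scaled totals), except for 697, where they are the authors' normalized counts. Fold changes are log2 ratios of the first arm over the second ± standard error, and a gene is called when its p-value, adjusted over all genes of the comparison by Benjamini-Hochberg, is below 0.05 in edgeR's quasi-likelihood test or, for 697, in limma. NSD2 followed its labels in every library. It was at 1533 to 1831 CPM in EK and 1637 to 1747 CPM in WT libraries of Reh, against 576 and 581 CPM with EV. In 697 it was at 70828 to 102025 (EK) and 80839 to 110659 (WT) normalized counts, against 7723 to 10854 with EV. In the knockdown lines it was at 142 to 254 CPM (sh2) and 132 to 227 CPM (sh5), against 289 to 364 CPM with NT. In edgeR's test its fall was called in SEM, with sh2 (-0.99, adjusted p = 8.92e-09) and sh5 (-1.28, adjusted p = 1.87e-09). The fall of NSD2 itself was not called in RS411 with sh2 (-0.71, adjusted p = 0.118) or sh5 (-0.83, adjusted p = 0.164). In RCH it was not called with sh2 (-0.77, adjusted p = 0.0952) or sh5 (-0.80, adjusted p = 0.508). The B-lineage markers summed to 1354 to 2576 CPM per library, with VPREB1 at 0 in Reh, while the T and NK, myeloid, and stromal and epithelial marker lists each summed to between 1.24 and 54.9 CPM. The RNA comes from whole cultures, in which fewer cells of a type and less RNA per cell cannot be told apart.

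Promoter windows, from 250 bases before to 50 bases after a gene's start, were taken from RefSeq on GRCh38.p14 and matched 24 of the 28 genes in 32 windows; ACAT2, FDFT1, SQLE and FASN had no match. The sterol regulatory element TCACNCCAC, read on both strands, was found in 1 of the 32 windows, that of SREBF2, and in 1.13% of all 35116 windows. CCAAT, the NF-Y box that often stands beside it, was found on either strand in 20 of the 32 windows (62.5%) and in 34.6% of all windows. The GC box GGGCGG was in 29 of 32 (90.6%) and 45% of all, and the E box CACGTG in 5 of 32 (15.6%) and 7.26% of all. These are matches of letters in fixed windows, not sites shown to be bound. An element spelled otherwise, or lying outside its window, would be missed, so a window without a match is not shown to lack one. Windows are printed 5′ to 3′ for the called gene of each role whose log2 fold change was lowest in SEM sh2 cells, which puts a promoter beside the lowest called fold change of each role; capitals mark the CCAAT boxes and, in SREBF2, the sterol regulatory element as well.
HMGCS1 (chr5:43313363-43313662, minus strand): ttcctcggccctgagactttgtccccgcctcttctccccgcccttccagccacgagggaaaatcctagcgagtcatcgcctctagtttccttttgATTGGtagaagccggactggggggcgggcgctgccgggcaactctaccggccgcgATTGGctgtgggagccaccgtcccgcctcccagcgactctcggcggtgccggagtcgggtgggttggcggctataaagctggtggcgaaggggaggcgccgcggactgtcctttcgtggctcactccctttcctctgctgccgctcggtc
TM7SF2 (chr11:65111622-65111921, plus strand): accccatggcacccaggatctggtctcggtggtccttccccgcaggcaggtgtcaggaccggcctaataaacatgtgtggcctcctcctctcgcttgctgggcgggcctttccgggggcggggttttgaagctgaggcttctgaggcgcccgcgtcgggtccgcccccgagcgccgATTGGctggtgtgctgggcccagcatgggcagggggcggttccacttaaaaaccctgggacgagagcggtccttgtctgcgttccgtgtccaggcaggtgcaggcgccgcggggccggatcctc
SREBF2 (chr22:41832855-41833154, plus strand): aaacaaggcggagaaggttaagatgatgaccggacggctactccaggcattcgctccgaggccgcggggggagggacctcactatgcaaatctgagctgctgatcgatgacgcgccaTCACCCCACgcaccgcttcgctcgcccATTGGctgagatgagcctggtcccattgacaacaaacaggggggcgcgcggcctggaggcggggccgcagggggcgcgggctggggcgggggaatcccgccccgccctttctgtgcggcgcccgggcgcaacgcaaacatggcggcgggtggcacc
SCD (chr10:100346983-100347282, plus strand): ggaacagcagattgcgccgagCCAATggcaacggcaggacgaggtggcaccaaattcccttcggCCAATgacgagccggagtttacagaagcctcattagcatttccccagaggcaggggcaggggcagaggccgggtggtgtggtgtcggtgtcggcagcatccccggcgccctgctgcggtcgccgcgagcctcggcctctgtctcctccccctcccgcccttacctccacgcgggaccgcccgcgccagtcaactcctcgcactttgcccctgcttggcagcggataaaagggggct
For HMGCS1 the first of its 2 windows is shown. In SREBF2 the element TCACCCCAC begins at position -133 from the start site, and a reverse CCAAT box (ATTGG) follows it.

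Levels in the control arms were set side by side per kilobase of exon (RPKM), as a description without a test between lines. INSIG1 was the highest of the 28 genes in Reh (151 ± 11.2, SD, n = 2), RS411 (122 ± 7.47, n = 3) and SEM (151 ± 11.9, n = 3), and the second highest in 697 (70.6 ± 22.2, n = 3) and RCH (40.0 ± 6.91, n = 3), behind SQLE at 71.0 and FDPS at 45.8. CYP51A1, lanosterol demethylase, lay between 1.48 and 1.86 RPKM in Reh, 697, RS411 and RCH and at 5.51 ± 0.42 in SEM; it shares its strand and position with other annotated genes and has pseudogenes, so part of its reads may have been assigned elsewhere. HMGCS1, which makes HMG-CoA, ranged from 15.5 RPKM in RCH to 112 in SEM. RCH was the lowest line for 14 of the 28 genes and Reh for 9.

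SCD, the stearoyl-CoA desaturase, had next to no reads in Reh. There, 1 read was counted in each of the 2 EK libraries and 0 reads in each WT and EV library, where 0 reads allow up to 0.127 CPM (3 reads of the shallowest library's total; counting error only). In the control arms of the other lines SCD had 157, 125 and 173 CPM in RS411, 135, 143 and 172 CPM in RCH and 219.7, 223 and 236 CPM in SEM. In 697 it stood at 62.0 ± 8.86 RPKM, the fourth highest of the 28 genes. The gap between Reh and the other lines is larger than the spread between replicates in any line, but no test between lines was made. SCD did not pass the low-count filter in Reh, where 27 genes entered the fit. HSD17B7, a sterol ketoreductase, also split the lines, with 1.30 ± 0.15 RPKM in Reh, 1.44 ± 0.21 in 697 and 2.16 ± 0.34 in RCH, against 5.62 ± 0.44 in RS411 and 6.21 ± 0.09 in SEM; the annotation lists pseudogenes for it, and reads shared with them may be uncertain.

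**Figure D1:**
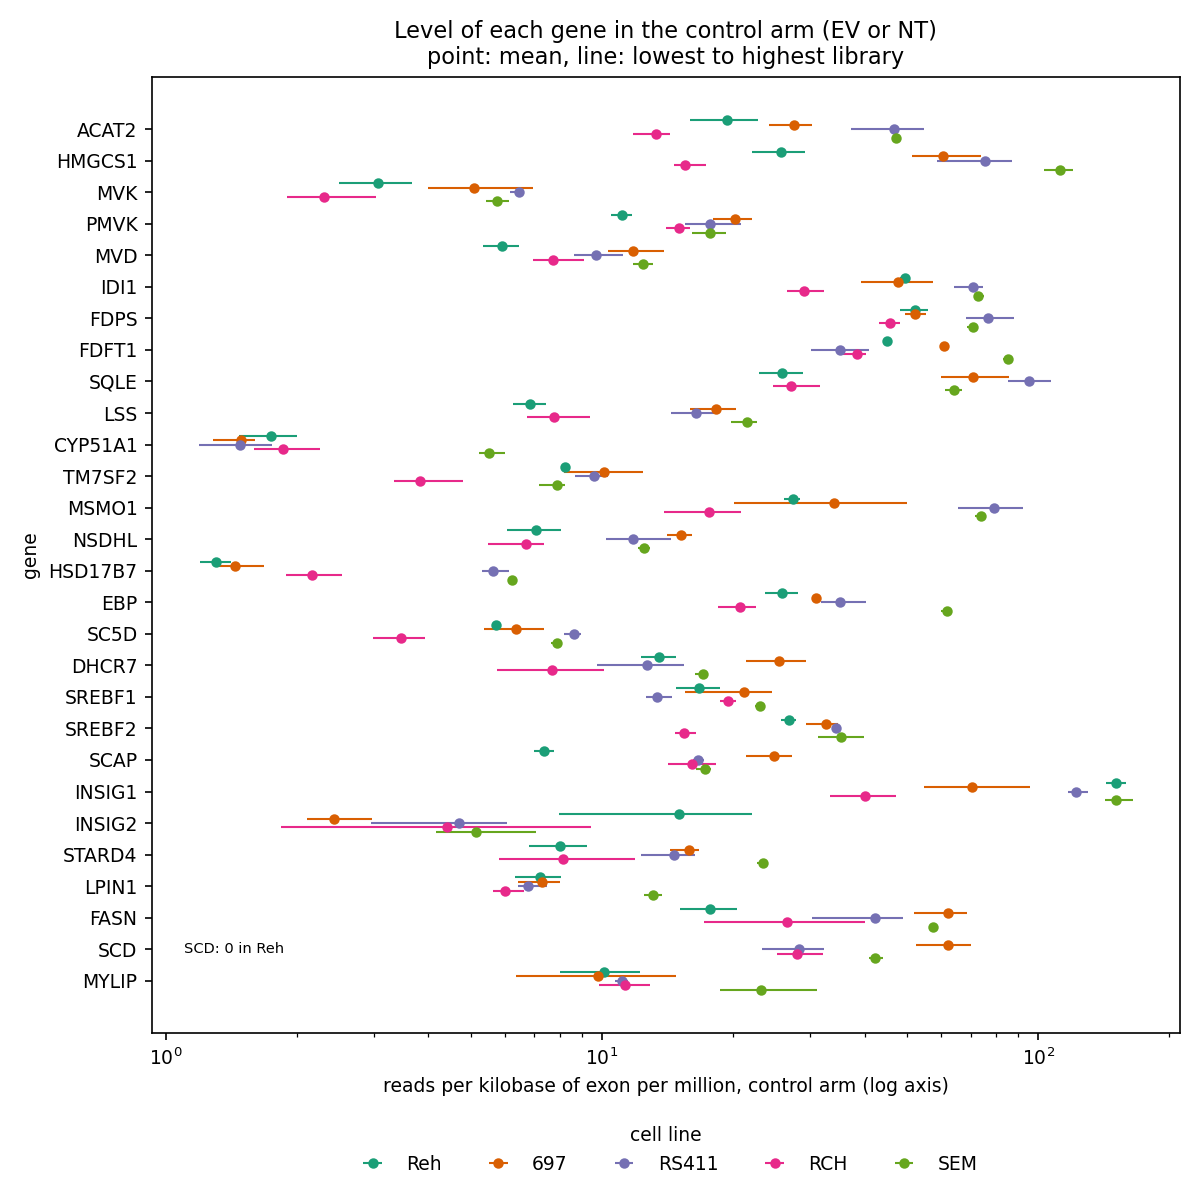
Level of each of the 28 genes in the control arm of each line, in RPKM on a log axis, where points are means and lines run from the lowest to the highest library (2 libraries for Reh, 3 for the others). SCD is at 0 in Reh and between 28.0 and 62.0 in the other lines, and INSIG1 is at 151 in both Reh and SEM.

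In the fits of all 3 arms of a line without a replicate block, edgeR's for the count tables and limma's for 697, the calls among these genes came from SEM. There, 17 of the 28 genes were lower and 1 was higher with sh2, and 10 were lower and 1 was higher with sh5, while in these fits no gene was called in RS411, RCH, 697 or Reh. The share of all genes called was far higher in SEM (27.9% of 17042 genes for sh2, 14.4% called lower; 21.3% for sh5, 10.2% called lower) than in the other lines, so the counts are read beside those shares. The median log2 fold change of the 28 genes was -0.23 for SEM sh2 and -0.13 for SEM sh5, against 0.01 and -0.01 over all genes tested. Both hairpin arms are compared with the same NT libraries. In SEM every sh2 library was below every NT library for 18 of the 28 genes, beside 20.1% of all genes. With sh5 this held for 13 genes, beside 17.3% of all genes.

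**Figure D2:**
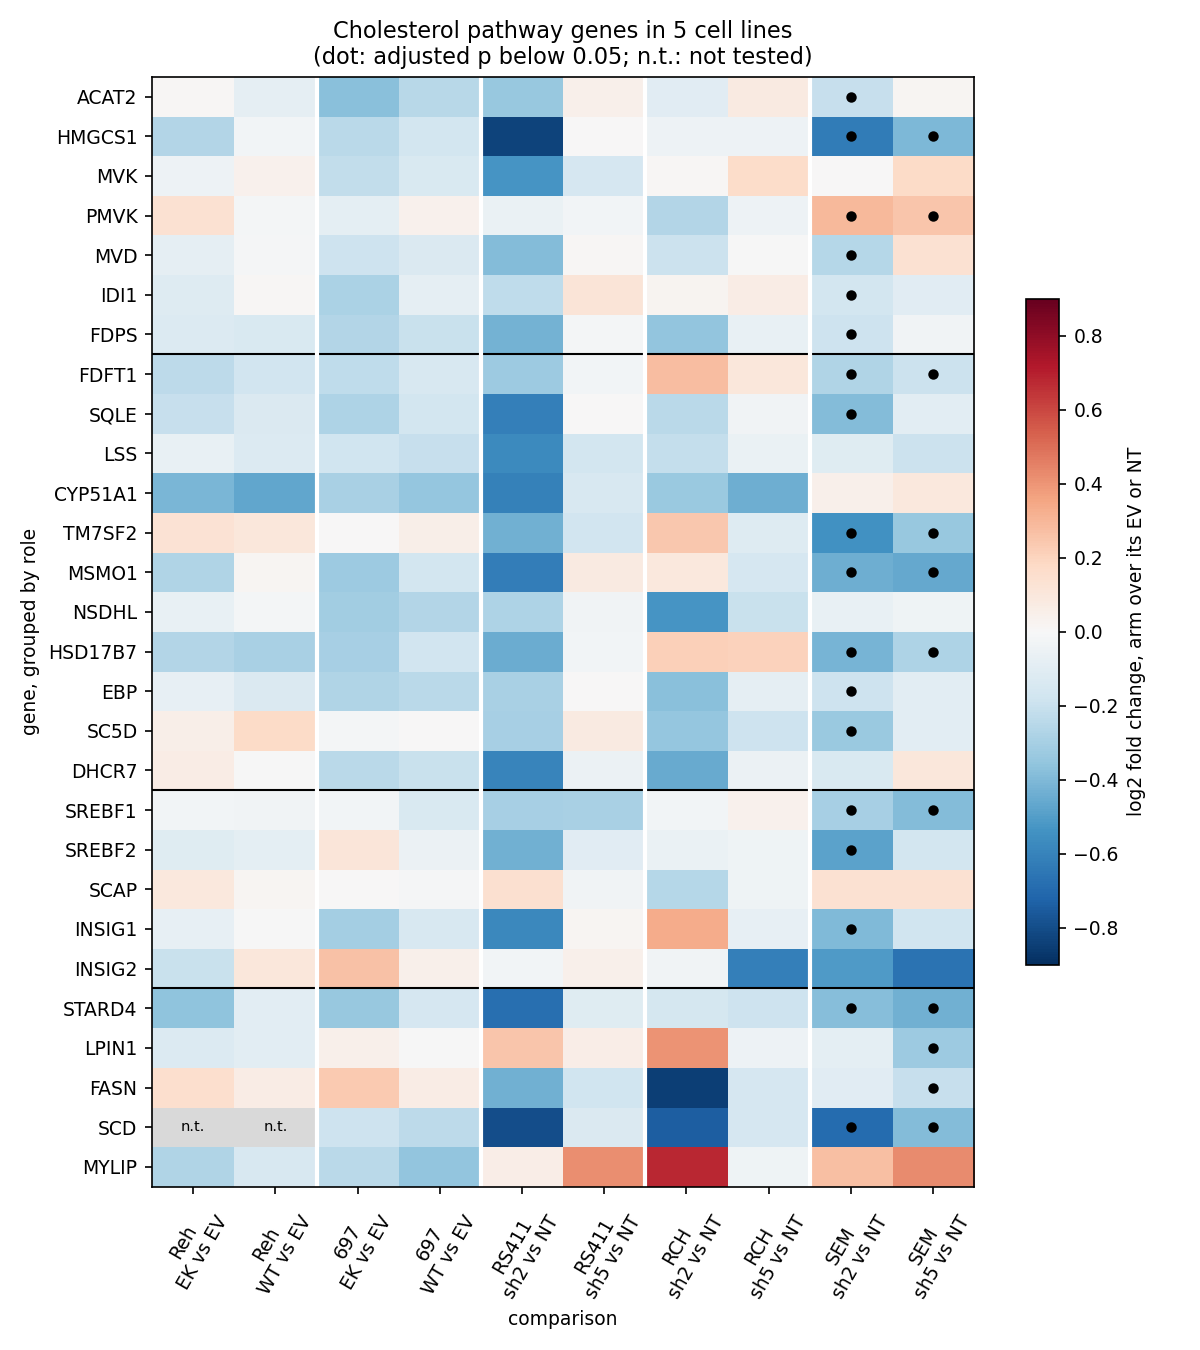
Log2 fold change of each gene (rows, grouped by role: early mevalonate enzymes, sterol branch enzymes, regulators, and transport, lipid synthesis and receptor turnover) in each arm over its EV or NT control (columns), from red (higher) to blue (lower); dots mark an adjusted p below 0.05. Calls stand in the 2 SEM columns alone, 18 for sh2 and 11 for sh5, and RS411 sh2 is blue in 25 of 28 rows without a call.

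In SEM, the early mevalonate enzymes were lower with sh2 for 5 of 7 genes and higher for 1, and with sh5 for 1 and 1. HMGCS1, HMG-CoA synthase, had 335, 349 and 337 CPM in the sh2 libraries and 355, 409.8 and 426 CPM in the sh5 libraries, against 482, 531 and 563 CPM in the NT libraries. Each sh2 and sh5 library was below each NT library, and HMGCS1 fell with sh2 (-0.63 ± 0.07, adjusted p = 7.38e-06) and sh5 (-0.40 ± 0.07, adjusted p = 0.000721). PMVK, phosphomevalonate kinase, had 28.1, 27.6 and 27.7 CPM in the sh2 libraries and 27.9, 25.6 and 27.5 CPM in the sh5 libraries, against 24.6, 20.7 and 22.8 CPM in the NT libraries. PMVK was the 1 early mevalonate enzyme called higher: it rose with sh2 (0.29 ± 0.08, adjusted p = 0.00965) and sh5 (0.25 ± 0.08, adjusted p = 0.0294), with no overlap between either hairpin arm and NT. MVD, which decarboxylates mevalonate diphosphate, had 50.5, 50.9 and 45.9 CPM in the sh2 libraries and 56.2, 65.2 and 71.8 CPM in the sh5 libraries, against 55.6, 58.5 and 62.0 CPM in the NT libraries. MVD fell with sh2 (-0.26 ± 0.08, adjusted p = 0.0294), whereas with sh5 its libraries overlapped those of NT (0.13 ± 0.08, adjusted p = 0.285). ACAT2, the cytosolic acetoacetyl-CoA thiolase, had 176, 180.2 and 170.4 CPM with sh2, against 205, 200.4 and 204 CPM with NT. IDI1, the isomerase of isopentenyl diphosphate, had 288, 284 and 273 CPM with sh2, against 326, 309 and 313 CPM with NT. FDPS, farnesyl diphosphate synthase, had 229, 246 and 218 CPM with sh2, against 256, 269.8 and 264 CPM with NT. All 3 fell by small amounts in edgeR's test, by log2 -0.21 (adjusted p = 0.00982), -0.17 (adjusted p = 0.0218) and -0.19 (adjusted p = 0.0379), and none passed with sh5. MVK, mevalonate kinase, was not called with either hairpin (0.00 ± 0.08, adjusted p = 0.974 for sh2 and 0.17 ± 0.08, adjusted p = 0.132 for sh5). ACAT2 and MVK overlap genes on the other strand, and FDPS has pseudogenes.

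The sterol branch was lower in SEM for 7 of 11 enzymes with sh2 and for 4 with sh5, with none higher. MSMO1, a methyl sterol monooxygenase, had 158, 162 and 152 CPM in the sh2 libraries and 142, 150.5 and 174 CPM in the sh5 libraries, against 207, 216 and 218 CPM in the NT libraries. MSMO1 fell with sh2 (-0.44 ± 0.07, adjusted p = 0.00014) and sh5 (-0.46 ± 0.07, adjusted p = 0.000169), and neither arm overlapped NT. SQLE, squalene epoxidase, had 211, 220.3 and 198 CPM in the sh2 libraries and 232, 261 and 279.8 CPM in the sh5 libraries, against 263, 288 and 275 CPM in the NT libraries. SQLE fell with sh2 (-0.39 ± 0.07, adjusted p = 0.000465), while with sh5 the replicates spread across the lower edge of NT (-0.10 ± 0.07, adjusted p = 0.361). TM7SF2, a sterol reductase, had 16.9, 20.9 and 17.4 CPM in the sh2 libraries and 18.6, 21.4 and 23.6 CPM in the sh5 libraries, against 24.4, 28.1 and 28.1 CPM in the NT libraries. HSD17B7, the ketoreductase, had 21.6, 22.1 and 22.8 CPM in the sh2 libraries and 22.6, 24.4 and 26.4 CPM in the sh5 libraries, against 29.7, 30.1 and 29.2 CPM in the NT libraries. TM7SF2 and HSD17B7 were below NT in every library of both hairpin arms. TM7SF2 fell by log2 -0.55 (adjusted p = 0.000972) with sh2 and -0.34 (adjusted p = 0.0278) with sh5. HSD17B7 fell by -0.42 (adjusted p = 0.000467) with sh2 and -0.28 (adjusted p = 0.0126) with sh5. TM7SF2 shares its strand and position with VPS51. FDFT1, squalene synthase, had 376, 369 and 354 CPM in the sh2 libraries and 367, 380.3 and 417 CPM in the sh5 libraries, against 432, 454 and 443 CPM in the NT libraries. SC5D, a sterol desaturase, had 33.9, 38.0 and 32.6 CPM in the sh2 libraries and 41.2, 41.9 and 40.2 CPM in the sh5 libraries, against 44.2, 42.4 and 44.7 CPM in the NT libraries. FDFT1 fell in both arms (log2 -0.27 and -0.19, adjusted p = 0.00186 and 0.0254). SC5D fell with sh2 (log2 -0.33, adjusted p = 0.00177), its sh5 value being -0.09 (adjusted p = 0.386). EBP, a sterol isomerase, had 129.6, 137 and 127 CPM with sh2, against 149.9, 144 and 153 CPM with NT, and fell by log2 -0.18 (adjusted p = 0.0309). LSS, CYP51A1, NSDHL and DHCR7 were not called with either hairpin, with log2 values between -0.14 and 0.05 for sh2 and between -0.19 and 0.10 for sh5; LSS fell with sh5 once the replicate number was blocked (-0.20 ± 0.06, adjusted p = 0.011).

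Of the 5 regulators, 3 were lower with sh2 in SEM and 1 with sh5. SREBF2, whose SREBP product favours cholesterol genes, had 173, 212 and 188 CPM in the sh2 libraries and 216, 250.4 and 246 CPM in the sh5 libraries, against 236, 264 and 300.4 CPM in the NT libraries. SREBF2 fell with sh2 (-0.48 ± 0.10, adjusted p = 0.00233), with every sh2 library below every NT library, and the sh5 libraries lay between and overlapped NT (-0.17 ± 0.10, adjusted p = 0.25). SREBF1, whose products favour fatty acid genes, had 162, 153 and 136 CPM in the sh2 libraries and 142, 142 and 138 CPM in the sh5 libraries, against 187, 187 and 179.5 CPM in the NT libraries. SREBF1 fell with both hairpins, by log2 -0.30 (adjusted p = 0.00197) with sh2 and -0.39 (adjusted p = 0.000317) with sh5; it overlaps RAI1 on the other strand. INSIG1, whose protein holds SCAP back when sterols are ample, had 422, 449 and 385 CPM in the sh2 libraries and 443, 489 and 536 CPM in the sh5 libraries, against 537, 602 and 519 CPM in the NT libraries. INSIG1 fell with sh2 (-0.40 ± 0.08, adjusted p = 0.00137) and was not called with sh5 (-0.18 ± 0.08, adjusted p = 0.132). SCAP, the escort protein, was not called with either hairpin (0.14 ± 0.06, adjusted p = 0.0936 for sh2 and 0.14 ± 0.06, adjusted p = 0.111 for sh5), though each sh5 library was above each NT library. INSIG2 had 12.2, 13.2 and 17.5 CPM with sh2 and 12.4, 12.6 and 13.5 CPM with sh5, against 16.6, 16.5 and 27.9 CPM with NT, where replicate 3 stood apart, and was not called with either. Replicate numbers were taken to pair the SEM libraries, from correlations in these same data, as the labels name no pairing. In edgeR's fit with that block, INSIG2 fell with sh2 (-0.49 ± 0.10, adjusted p = 0.00147) and sh5 (-0.63 ± 0.10, adjusted p = 0.000273). SREBF2 fell with sh5 too (-0.17 ± 0.05, adjusted p = 0.0229), and SCAP rose with sh2 (0.14 ± 0.05, adjusted p = 0.0258) and sh5 (0.14 ± 0.05, adjusted p = 0.0293).

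Among the 5 transport and lipid genes of SEM, 2 were lower with sh2 and 4 with sh5, and SCD had the lowest log2 fold change with sh2. SCD, the desaturase, had 139, 151 and 129.8 CPM in the sh2 libraries and 164, 171 and 183 CPM in the sh5 libraries, against 219.7, 223 and 236 CPM in the NT libraries. The 3 arms did not overlap, and SCD fell with sh2 (-0.69 ± 0.06, adjusted p = 8.86e-07) and sh5 (-0.39 ± 0.06, adjusted p = 0.000435); reads shared with its pseudogene may be uncertain. STARD4, a carrier of cholesterol between membranes, had 108, 98.3 and 101 CPM in the sh2 libraries and 105, 90.0 and 100.3 CPM in the sh5 libraries, against 135, 135 and 129 CPM in the NT libraries. STARD4 fell by log2 -0.38 (adjusted p = 0.000291) with sh2 and -0.43 (adjusted p = 0.000154) with sh5. LPIN1, a phosphatidate phosphatase, had 143, 149.7 and 147 CPM in the sh2 libraries and 118, 119 and 135 CPM in the sh5 libraries, against 148, 156 and 163 CPM in the NT libraries. FASN, fatty acid synthase, had 541, 518 and 443 CPM in the sh2 libraries and 488, 453 and 455 CPM in the sh5 libraries, against 537, 526 and 549 CPM in the NT libraries. LPIN1 and FASN fell with sh5, by log2 -0.33 (adjusted p = 0.00122) and -0.21 (adjusted p = 0.0399), and were not called with sh2, at -0.09 (adjusted p = 0.331) and -0.10 (adjusted p = 0.298). MYLIP had 81.4, 68.2 and 106 CPM with sh2 and 89.5, 75.5 and 119 CPM with sh5, against 60.7, 56.4 and 94.2 CPM with NT; replicate 3 was the highest in each arm, and neither value was called. In the blocked fit MYLIP rose with sh2 (0.28 ± 0.05, adjusted p = 0.000168) and sh5 (0.43 ± 0.05, adjusted p = 1.81e-06).

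**Figure D3:**
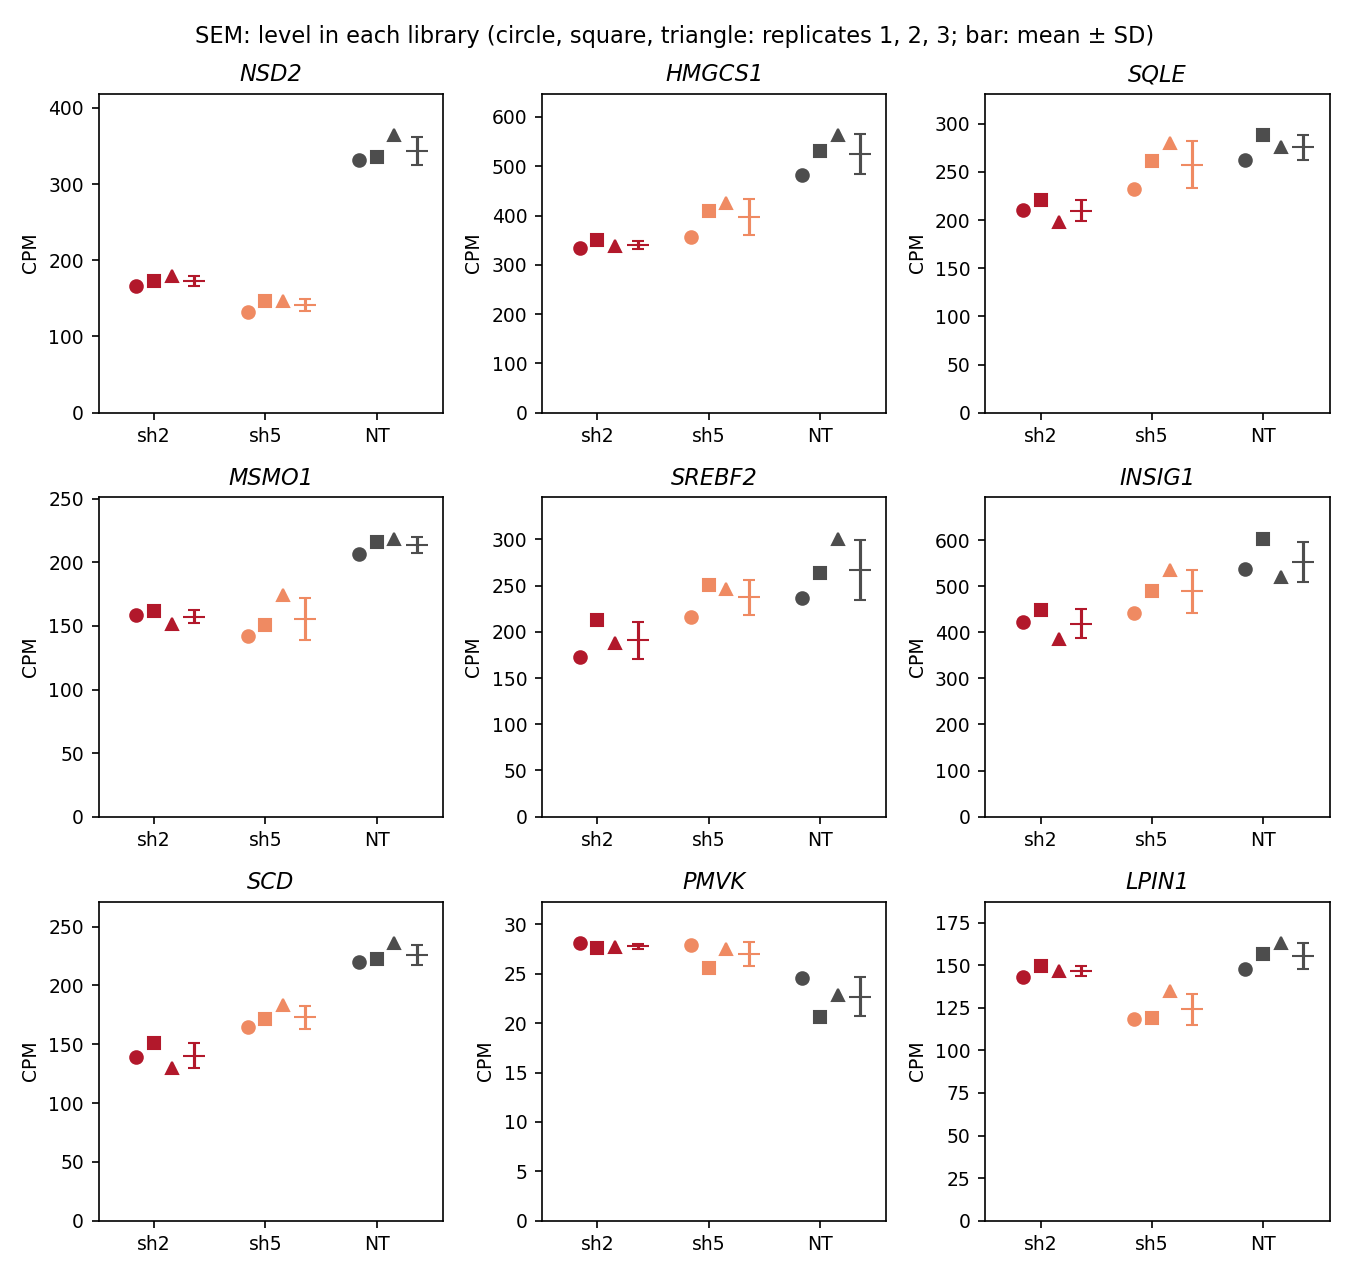
CPM of NSD2 and 8 genes of the list in each SEM library, by arm (sh2, sh5, NT), with symbols for replicate numbers and bars for mean ± SD (n = 3). HMGCS1, MSMO1 and SCD lie below NT in every hairpin library, PMVK lies above, and NSD2 is lower with sh5 (132 to 146) than with sh2 (166 to 179).

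Marker levels moved with the hairpins in SEM. The 5 myeloid markers summed to 32.9 to 48.0 CPM with sh2 and 41.8 to 54.9 CPM with sh5, against 13.6 to 20.5 CPM with NT. CSF1R was the highest of them, at 33.4 CPM on average over the line, and ELANE was at 0. The 8 B-lineage markers summed to 1374 to 1412 CPM with sh2 and 1354 to 1433 CPM with sh5, against 1610 to 1757 CPM with NT. The 5 T and NK markers summed to 12.3 to 16.0 and 15.9 to 21.5 CPM, against 17.0 to 22.0 CPM, in the same order of arms. The 4 stromal and epithelial markers summed to 1.87 to 3.70 and 1.90 to 3.57 CPM, against 2.88 to 6.59 CPM. Their part in the results above was not tested. Of the 10 DNA replication genes, edgeR called 0 with sh2 and 0 with sh5 in SEM, with medians of -0.01 and -0.06 and with 1 and 1 genes at an unadjusted p below 0.05. With NT replicate 3 left out, the calls of the list with sh5 numbered 7, all lower, beside 8.11% of all genes called lower.

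Set directly against sh5 in SEM, sh2 libraries were lower for 6 genes of the list and higher for 1, where 12.4% of all genes were called and 8.02% were called lower. MVD (-0.39 ± 0.08, adjusted p = 0.00465), SQLE (-0.30 ± 0.07, adjusted p = 0.00884), SCD (-0.30 ± 0.06, adjusted p = 0.0046), DHCR7 (-0.23 ± 0.07, adjusted p = 0.049), SC5D (-0.24 ± 0.07, adjusted p = 0.0304) and ACAT2 (-0.23 ± 0.06, adjusted p = 0.0117) were lower with sh2, and LPIN1 was higher (0.24 ± 0.06, adjusted p = 0.0164). NSD2 itself was higher with sh2 than with sh5 (0.29 ± 0.06, adjusted p = 0.00425). In the blocked fit 11 genes were lower and 1 was higher, beside 12.0% of all genes called lower; HMGCS1 (-0.22 ± 0.05, adjusted p = 0.00265), SREBF2 (-0.31 ± 0.05, adjusted p = 0.000285), FDPS, INSIG1 and MYLIP joined the lower ones. The count rests on few libraries: it was 2 without sh2 replicate 3 (8.75% of all genes called), 3 without sh5 replicate 2 (8.41%) and 3 without sh5 replicate 3 (8.89%).

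The lowest median of all comparisons with EV or NT was that of sh2 in RS411. The median log2 fold change was -0.43, against 0.00 over all genes, and 25 of 28 genes were below 0, among them all 18 enzymes. Of the list, 13 had an unadjusted p below 0.05, yet none was called in edgeR's test, where 1.67% of genes were (286 of 17165). DESeq2 called 5, all lower, beside 1.19% of its 38042 genes called lower, a number that includes genes it gave no adjusted p. HMGCS1, HMG-CoA synthase, had 167, 128 and 304 CPM in the sh2 libraries and 399, 251 and 422 CPM in the sh5 libraries, against 383, 276 and 409 CPM in the NT libraries. SCD, the desaturase, had 74.1, 55.8 and 132 CPM in the sh2 libraries and 151, 98.9 and 166 CPM in the sh5 libraries, against 157, 125 and 173 CPM in the NT libraries. Replicates 1 and 2 of sh2 were far below NT and replicate 3 was within or near it, for these genes as for NSD2, which had 155, 157 and 254 CPM with sh2, against 289, 329 and 305 CPM with NT. Over the list, the median log2 ratio to the NT mean was -0.49, -0.75 and -0.06 in sh2 replicates 1, 2 and 3. It was 0.05, -0.30 and 0.18 in sh5 replicates 1, 2 and 3, and -0.01, -0.16 and 0.18 in those of NT. Replicate 3 was therefore the highest and replicate 2 the lowest in each arm. Whether the list followed the NSD2 level of a library was not tested. Every sh2 library was below every NT library for 8 genes (MVK, TM7SF2, HSD17B7, SC5D, SREBF1, SREBF2, INSIG1 and STARD4), as it was for 10.6% of all genes.

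Replicate numbers were taken to pair the RS411 libraries across arms, from correlations in these same data, as the labels name no pairing. With that number blocked, 21 genes were lower with sh2 and 1 was higher, beside 6.83% of all genes called lower. MSMO1 had the smallest adjusted p (-0.66 ± 0.08, adjusted p = 0.000944), with 133, 106 and 207 CPM in sh2 libraries, against 231, 189.6 and 267 CPM in NT libraries. STARD4 (-0.71 ± 0.09, adjusted p = 0.00142) had 49.7, 39.1 and 66.6 CPM with sh2, against 92.6, 70.2 and 85.8 CPM with NT, and its groups did not overlap. SREBF2 (-0.45 ± 0.10, adjusted p = 0.0251) had 176, 159 and 244 CPM with sh2, against 259, 254 and 267 CPM with NT, again without overlap, though replicate 3 came close. INSIG1 fell (-0.62 ± 0.13, adjusted p = 0.0218), with 271, 218 and 402 CPM with sh2, against 430.1, 426 and 475 CPM with NT. HMGCS1 (-0.90 ± 0.19, adjusted p = 0.0409), SQLE (-0.66 ± 0.14, adjusted p = 0.0306) and SCD (-0.87 ± 0.18, adjusted p = 0.0453) also fell. LPIN1 was the gene that rose (0.25 ± 0.05, adjusted p = 0.00627), at 97.4, 99.3 and 89.6 CPM with sh2, against 76.3, 88.6 and 76.3 CPM with NT. MVK, PMVK, DHCR7, SCAP, INSIG2 and MYLIP were not called. Without sh2 replicate 3 and without the block, 11 genes were called, all lower, beside 4.85% of all genes called lower.

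The sh5 hairpin of RS411 left the list near its NT level, with NSD2 at 167, 142 and 210.2 CPM. The median log2 fold change was -0.02, like that of all genes (-0.02), and none was called in edgeR's test (0.478% of all genes; 2 of the list at an unadjusted p below 0.05), while DESeq2 called 1, higher, beside 0.660% of its genes called higher. Leaving out 1 library moved that median between -0.13 and 0.10, with values above 0 without sh5 replicate 2 (0.09) and without NT replicate 3 (0.10). HMGCS1 had 399, 251 and 422 CPM with sh5, against 383, 276 and 409 CPM with NT, and SQLE had 429, 334 and 474 CPM with sh5, against 404, 367 and 462 CPM with NT. The arms overlapped for both. With the block, 2 genes were called, beside 5.41% of all genes. SREBF1 fell (-0.29 ± 0.06, adjusted p = 0.0176), at 90.2, 84.6 and 88.9 CPM with sh5 and 83.8, 83.8 and 94.7 CPM with sh2, against 105, 116 and 101 CPM with NT. MYLIP rose (0.42 ± 0.07, adjusted p = 0.00214), at 44.3, 46.2 and 44.7 CPM with sh5, against 35.0, 32.4 and 33.8 CPM with NT, and stood at 39.5, 32.4 and 33.2 CPM with sh2.

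In the direct comparison of the RS411 hairpins, 26 of 28 genes were lower with sh2 than with sh5, with a median of -0.38, against 0.01 over all genes, and none was called without the block (0.577% of all genes; 12 of the list at an unadjusted p below 0.05; 2 lower by DESeq2, beside 0.704% of its genes). With the block, 14 genes were lower with sh2 and 2 were higher, beside 4.55% of all genes called lower. MSMO1 (-0.73 ± 0.08, adjusted p = 0.000577), SC5D (-0.39 ± 0.06, adjusted p = 0.00129) and STARD4 (-0.57 ± 0.09, adjusted p = 0.00511) were among the lower genes, and LPIN1 (0.19 ± 0.05, adjusted p = 0.0338) and SCAP were the higher ones. HMGCS1 missed the threshold (-0.89 ± 0.18, adjusted p = 0.0575). SREBF1 was at nearly the same level with both hairpins (-0.01 ± 0.06, adjusted p = 0.959). Leaving out sh2 replicate 3, without the block, gave 8 genes called lower, beside 3.11% of all genes.

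**Figure D4:**
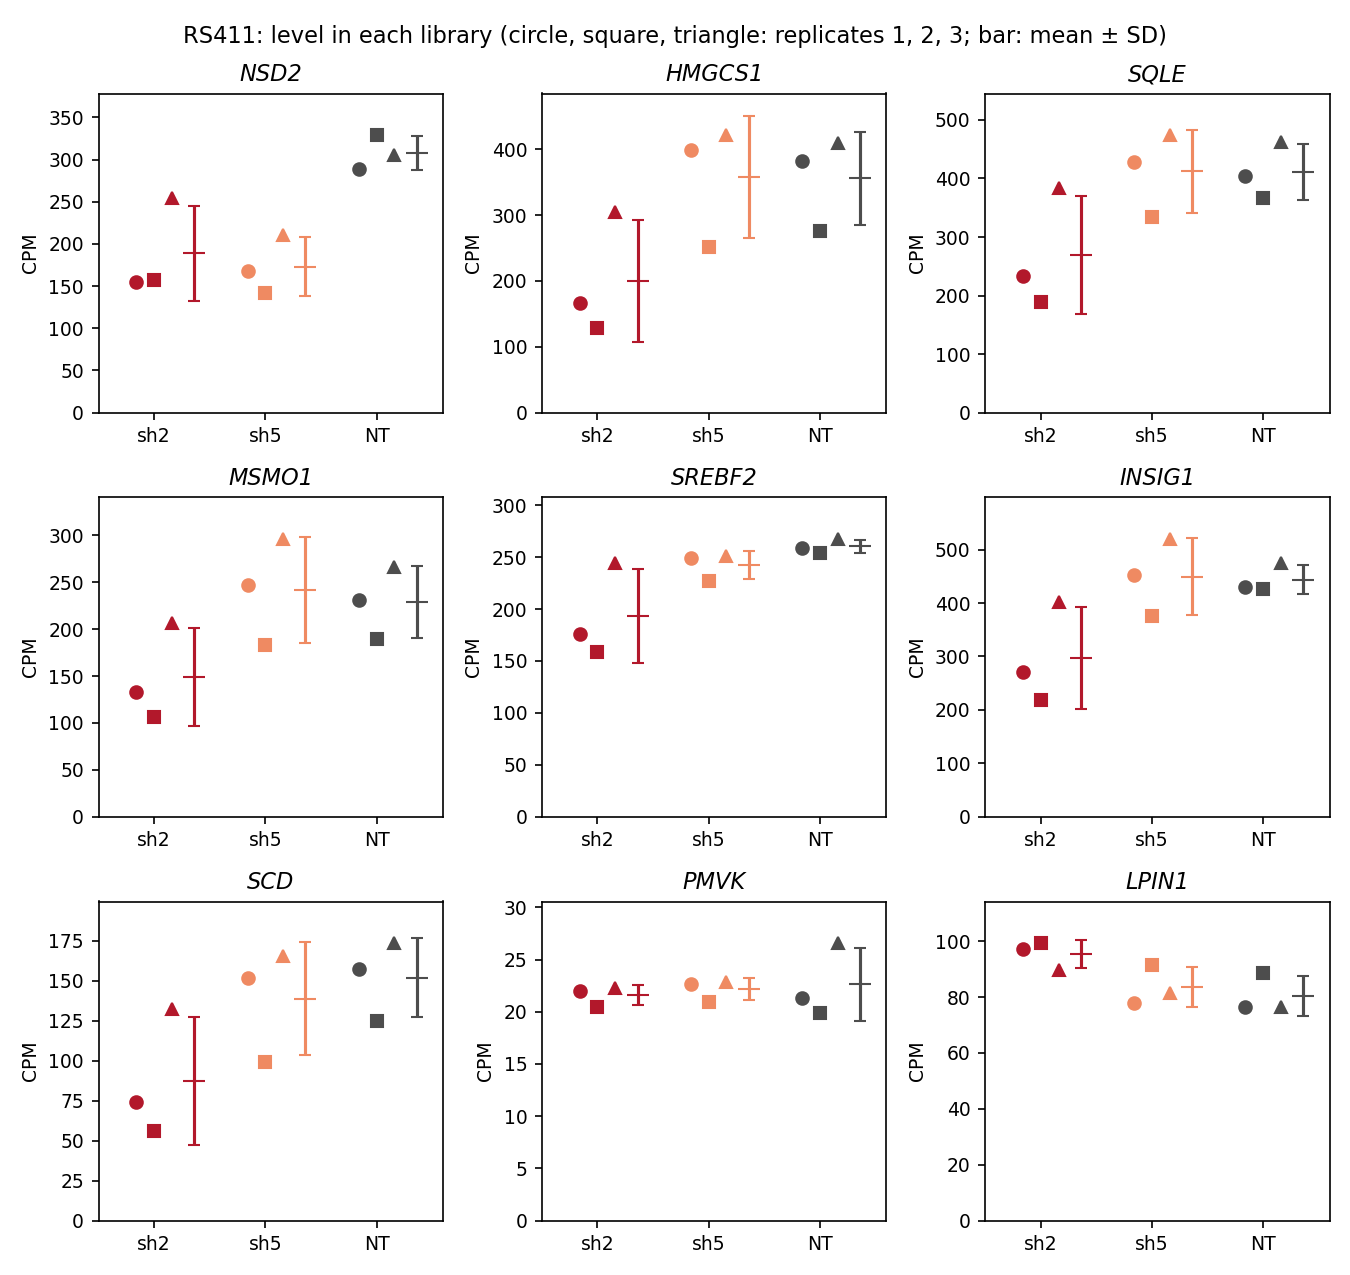
CPM of NSD2 and 8 genes of the list in each RS411 library, by arm (sh2, sh5, NT), with symbols for replicate numbers and bars for mean ± SD (n = 3). The third sh2 replicate (triangle) lies at or near the NT libraries for HMGCS1 (304 CPM) and SCD (132 CPM), while replicates 1 and 2 lie below; sh5 libraries span the NT range.

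In RCH neither edgeR's fit of the 3 arms nor DESeq2 called a gene of the list. With sh2, 19 of 28 genes were below 0 and the median was -0.13, against -0.02 over all genes; none was called by edgeR, where 1.37% of genes were, or by DESeq2, and 5 had an unadjusted p below 0.05. SCD, the desaturase, had 62.4, 92.3 and 114 CPM in the sh2 libraries and 95.9, 141 and 169 CPM in the sh5 libraries, against 135, 143 and 172 CPM in the NT libraries. Each sh2 library of SCD was below each NT library (-0.74 ± 0.24, adjusted p = 0.156 in edgeR), and the sh5 libraries overlapped NT. With sh2 that separation held for 5 genes of the list and for 13.3% of all genes. LPIN1, the phosphatase, had 105, 89.1 and 88.0 CPM in the sh2 libraries and 77.4, 65.9 and 63.8 CPM in the sh5 libraries, against 78.6, 68.1 and 66.7 CPM in the NT libraries. LPIN1 was above NT in each sh2 library (0.40 ± 0.13, adjusted p = 0.157), the same direction as in RS411. FASN had 95.7, 153 and 164 CPM with sh2, against 161, 208 and 375 CPM with NT, with a wide NT spread (-0.85 ± 0.33, adjusted p = 0.216). MYLIP had 85.8, 38.1 and 41.6 CPM with sh2, against 39.0, 34.4 and 29.9 CPM with NT, and its log2 value of 0.68 rests mainly on replicate 1. With sh5, the median was -0.05 (0.04 without sh5 replicate 1), 0 genes were at an unadjusted p below 0.05 and none was called by edgeR or DESeq2, where 0.0229% of all genes were called by edgeR. Between sh2 and sh5 neither tool called a gene of the list and edgeR called 0% of all genes, with 3 of the list at an unadjusted p below 0.05. In RCH the myeloid markers summed to 10.3 to 15.7 CPM with sh2, against 17.9 to 24.7 CPM with NT, and the stromal and epithelial markers to 8.37 to 18.4 CPM with sh2, against 2.53 to 6.04 CPM with NT; their part was not tested.

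A joint fit of the 3 knockdown lines on 20225 genes asked for the mean response and its difference between lines; it uses the same libraries as the fits per line and is not independent of them. The mean sh2 response was called for 8 genes of the list, 7 lower and 1 higher, where 15.0% of all genes were called and 7.11% were called lower. The lower genes were SCD (-0.73 ± 0.15, adjusted p = 0.00146), HMGCS1 (-0.49 ± 0.15, adjusted p = 0.0263), SQLE (-0.40 ± 0.13, adjusted p = 0.0423), SC5D (-0.31 ± 0.07, adjusted p = 0.0033), SREBF2 (-0.31 ± 0.08, adjusted p = 0.00852), FDPS (-0.31 ± 0.09, adjusted p = 0.014) and SREBF1 (-0.19 ± 0.05, adjusted p = 0.0169). LPIN1 was the higher one (0.20 ± 0.06, adjusted p = 0.0213), a mean over unlike signs: its sh2 value was 0.25 in RS411, 0.40 in RCH and -0.09 in SEM. SCD had the lowest mean, and its sh2 values of -0.80 in RS411, -0.74 in RCH and -0.69 in SEM were close to each other. The median over the list was -0.27, against -0.01 over all genes. The count was 19 without RS411 sh2 replicate 3 (15.8% of all genes called), 4 without RCH sh2 replicate 1 (12.5%) and 5 without RCH NT replicate 3 (13.0%). Replicate number within each line was also blocked, though these data gave pairs in RS411 and SEM but not for sh2 in RCH. The blocked fit called 19 genes lower and 2 higher, beside 22.9% of all genes. MYLIP (0.33 ± 0.07, adjusted p = 0.000836) was the second higher gene.

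The median of the list for the mean sh5 response was -0.06. The share of the list called was 3.57%, below the 5.11% of all genes. It was 1 gene, SREBF1 (-0.20 ± 0.05, adjusted p = 0.0264 in edgeR). That call was lost when any 1 of 9 libraries was left out (replicates 1 and 2 of RS411 sh5, of RS411 NT and of SEM NT, replicates 2 and 3 of SEM sh5, and RCH sh5 replicate 3). The blocked fit called 3 genes, beside 9.90% of all genes. SREBF1 (-0.21 ± 0.05, adjusted p = 0.0169) and SCD (-0.24 ± 0.07, adjusted p = 0.049) were lower and MYLIP (0.28 ± 0.07, adjusted p = 0.00867) was higher. A difference of the sh2 response between lines was called for 1 gene, HSD17B7 (adjusted p = 0.0498), where 7.93% of all genes were called. Its log2 fold change was -0.45 in RS411 and -0.42 in SEM, and 0.21 in RCH. The count was 0 when any of 20 of the 27 libraries was left out, and ranged up to 5. INSIG1 (adjusted p = 0.0562) and LPIN1 (adjusted p = 0.0537) missed the threshold. In the blocked fit 10 genes were called for such a difference, beside 19.8% of all genes. They were LPIN1 (adjusted p = 0.000874), TM7SF2 (0.00372), HSD17B7 (0.00453), INSIG1 (0.00498), HMGCS1 (0.00766), PMVK, LSS, SCAP, MYLIP and FDFT1. For a difference of the sh5 response edgeR called 0 genes of the list without the block (1.75% of all genes; 2 at an unadjusted p below 0.05, SREBF1 and LPIN1) and 1 with it, LPIN1 (adjusted p = 0.021), beside 3.93% of all genes.

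**Figure D5:**
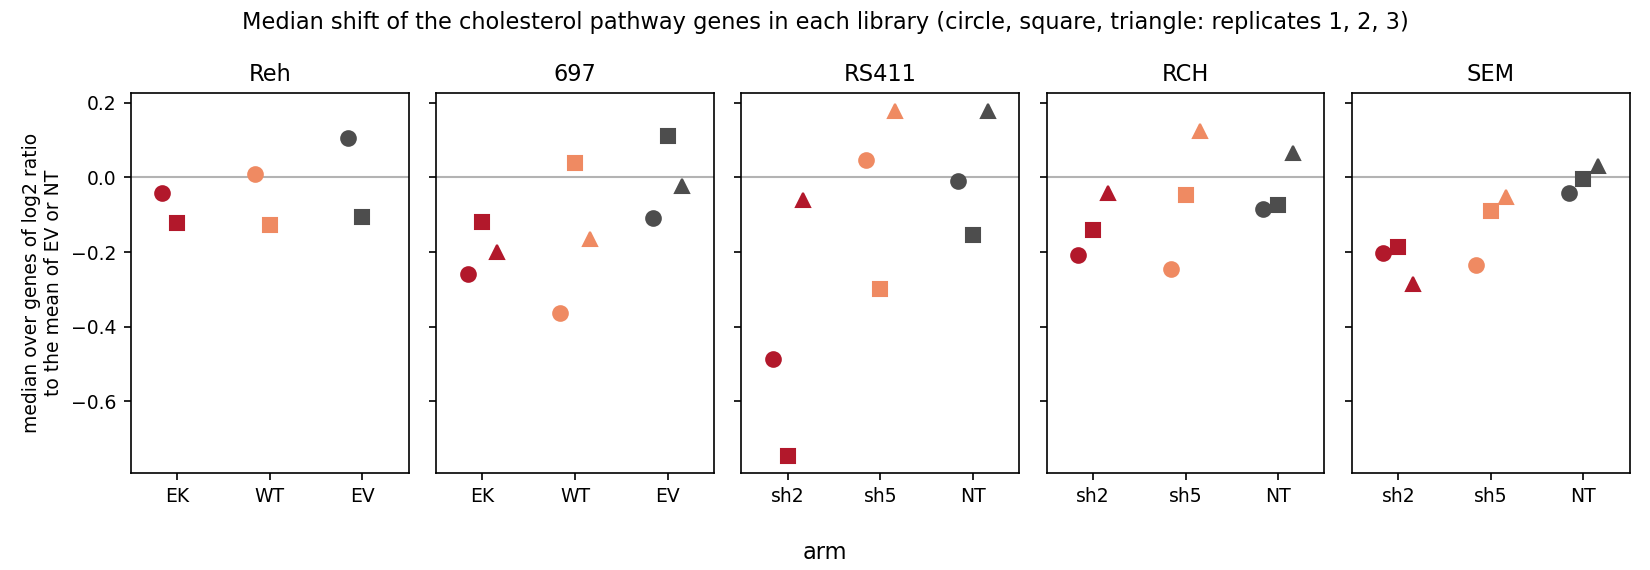
Median over the genes of the list of the log2 ratio to the mean of the control arm (EV or NT), for each library of each line, with symbols for replicate numbers; 27 genes for Reh and 28 for the others. The 3 SEM sh2 libraries lie between -0.29 and -0.19, RS411 sh2 replicates 1 and 2 at -0.49 and -0.75 and replicate 3 at -0.06.

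In the overexpression lines the fits without a replicate block called no gene of the list. In 697, EK libraries had a median log2 fold change of -0.23 against EV, beside -0.02 over all genes, with 22 of 28 genes below 0, including all 7 early mevalonate enzymes and 10 of 11 sterol branch enzymes. None was called in limma, where 0.172% of genes were, and 5 had an unadjusted p below 0.05. The recovered reads gave no call of the list in edgeR either, where 24 genes in all were called with EK, 28 with WT and 0 between EK and WT. ACAT2 had 4570, 4084 and 4400 normalized counts with EK and 4319, 5476 and 4559 with WT, against 5919, 6167 and 4949 with EV. EBP had 2979, 2784 and 3104 normalized counts with EK and 2702, 3101 and 3262 with WT, against 3714, 3475 and 3495 with EV. Each EK library was below each EV library for both, with log2 values in limma of -0.38 ± 0.13 (adjusted p = 0.843) and -0.27 ± 0.11 (adjusted p = 0.986). The same was true of 7 genes of the list in all (ACAT2, FDPS, FDFT1, CYP51A1, NSDHL, HSD17B7 and EBP) and of 3.97% of all genes. The EK median lay between -0.28 and -0.11 when 1 library was left out. WT against EV had a median of -0.15 (-0.27 to -0.03 with 1 library left out), with 23 genes below 0 and none called (0.190% of all genes; 0 of the list at an unadjusted p below 0.05). EK and WT differed in no gene of the list or of the whole table (0%), with 0 of the list at an unadjusted p below 0.05. INSIG1 shows the spread between replicates, which share their number across arms: it had 8069, 11918 and 9442 normalized counts with EK and 7805, 15977 and 10155 with WT, against 9683, 16557 and 10637 with EV, and replicate 2 was the highest in each arm. Blocked by replicate number in limma, the list still had 0 calls, and the smallest adjusted p in EK against EV was 0.131.

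In Reh, 20 of 27 genes were below 0 with EK and 19 with WT, with medians of -0.08 and -0.02, against 0.01 and -0.01 over all genes. That direction rested on single libraries: without EV replicate 1, 13 genes were below 0 with EK (median 0.01) and 10 with WT (median 0.05), and without WT replicate 2, 13 were below 0 with WT (median 0.00). None was called with EK (0.213% of all genes), with WT (0.219%) or between EK and WT (0%), and 1 gene of the list had an unadjusted p below 0.05 with EK and 0 in the other comparisons; DESeq2 called none. FDFT1 had 195 and 204 CPM with EK and 209 and 208 CPM with WT, against 240 and 229 CPM with EV. Both EK and both WT libraries were below the EV libraries (EK against EV in edgeR, -0.23 ± 0.10, adjusted p = 0.797). With EK that separation held for 5 of the 27 genes and 13.6% of all genes, and with WT for 4 and 14.9%. CYP51A1 had 5.12 and 4.26 CPM with EK and 4.99 and 3.99 CPM with WT, against 7.18 and 5.26 CPM with EV (WT against EV in edgeR, -0.47 ± 0.24, adjusted p = 1). INSIG2 differed more between replicates than between arms, at 26.4 and 77.1 CPM with EK and 30.8 and 97.0 CPM with WT, against 31.5 and 87.3 CPM with EV.

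Neighbouring pathways were read from lists of sterol handling and SREBP processing (19 genes), fatty acid synthesis (11), LXR and efflux (7) and DNA replication (10). In SEM the counts stand beside 27.9% of all genes called with sh2 (14.4% lower) and 21.3% with sh5 (10.2% lower). With sh2, 7 of the 11 fatty acid synthesis genes were lower and 0 were higher, with a median of -0.23. ELOVL6, which elongates long-chain fatty acids, fell by log2 -1.37 ± 0.09 (edgeR, adjusted p = 1.56e-07) with sh2 and -1.39 ± 0.09 (adjusted p = 3.73e-07) with sh5, more than any gene of the cholesterol list. MID1IP1, an activator of acetyl-CoA carboxylase, fell with sh2 (-0.43 ± 0.07, adjusted p = 0.000165). With sh5, 1 of the 11 was lower and 1 was higher, malic enzyme ME1 (1.89 ± 0.29, adjusted p = 0.000228). Sterol handling genes went both ways, 6 higher and 2 lower of 19 with sh2 and 4 higher and 3 lower with sh5. STARD3 (0.27 ± 0.06, adjusted p = 0.00331) and ERLIN1 (0.32 ± 0.06, adjusted p = 0.0014) rose with sh2. SOAT1, which esterifies cholesterol, fell with sh5 (-0.41 ± 0.06, adjusted p = 0.000141). Of 6 LXR and efflux genes tested, 3 were higher and 2 lower with sh2, among them the LXR gene NR1H3 (0.63 ± 0.10, adjusted p = 0.000311) and SMPDL3A (-1.59 ± 0.24, adjusted p = 0.000137), and 2 were higher and 2 lower with sh5. In the other lines these lists gave 0 calls in each comparison with EV or NT, with between 0 and 6 genes per list at an unadjusted p below 0.05. Medians in 697 EK against EV were -0.18 for DNA replication, -0.10 for sterol handling, -0.08 for fatty acid synthesis and 0.01 for LXR and efflux. The cholesterol list had -0.23 there. In RCH sh2 against NT they were -0.19, 0.04, -0.33 and 0.21, beside -0.13 for the cholesterol list. In RS411 sh2 against NT they were -0.04, 0.09, -0.28 and 0.36, beside -0.43 for the cholesterol list. There, 5 of 10 fatty acid synthesis genes and 6 of 7 LXR and efflux genes had an unadjusted p below 0.05 in edgeR's test. The LXR and efflux genes went both ways, with ABCA1 at 1.03 and SMPDL3A at -1.31. A negative median in these comparisons was not particular to the cholesterol list.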

How the data were processed

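RNA from 42 samples was prepared with a stranded, ribosomal RNA-depleted kit and sequenced as 54 base reads, per the labels' protocols. The authors trimmed with Trimmomatic, aligned with STAR and counted with featureCounts on hg19, per the submitters' processing notes; for tool versions and strand setting the sources used here give nothing, so reads of genes that overlap on opposite strands may be shared. The authors deposited raw counts per gene for Reh, RS411, RCH and SEM, and for 697 the authors deposited normalized signal values, each library's counts over its own factor: in units of a single read, 100% of the non-zero values came out whole to within 0.001 reads. Each table of Reh has 3 columns that match no sample and went unused. Reh identifiers took symbols from a name table (51996 of 57820 matched), and all 28 genes had identical reads in the named Reh table. For the knockdown lines, 27 gene names stored as dates were dropped; they held 0.214% (RS411), 0.247% (RCH) and 0.230% (SEM) of reads.

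The count test was that of edgeR 4.0.16 under R 4.3.3 (quasi-likelihood, TMM factors, filterByExpr, all 3 arms of a line in 1 fit), and 697 with limma 3.58.1 on log2(normalized count + 1), keeping means of 10 or more, where fold changes understate the change of low genes. P-values were adjusted by Benjamini-Hochberg over all genes of a comparison. Both fits were run on simulated data with 200 changed genes, whose results are not given here. The simulation gave all genes the same spread, changed only well-covered genes and held no replicate effect. It therefore does not speak for arms whose replicates differ widely, such as RS411 sh2. DESeq2 1.42.0, RLE factors, other filters and pseudocounts, fits of 2 arms, a block for the replicate number and leaving out each library were the alternatives; edgeR on recovered 697 reads with the block was chosen after seeing the data. Exon lengths came from GENCODE on GRCh38. Figures used matplotlib 3.10.9 in Python 3.11.15.

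The labels name no pairing of libraries, so it was inferred from these same data. Replicate numbers were taken to pair libraries where the deviations of same-numbered libraries from their arm means correlated above 0.1 in each pair. This held in 697 (0.423 to 0.604), RS411 (0.137 to 0.347), SEM (0.121 to 0.311) and RCH sh5 with NT (0.248 to 0.635), not in RCH sh2 with NT (lowest -0.069); the 2 pairs of Reh (0.560 to 0.599) are too few to decide. The 28 genes and the other lists were chosen with earlier results of these data known. All genes of the list may be named; values per library are given for those called against EV or NT and, in a line without a call, for the 2 with the smallest unadjusted p, and other genes shown per library were chosen after their values were seen. Some genes of these pathways are not analysed here.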

Additional observations from a re-analysis of the deposited data

Results flagged for a closer look

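The sh2 response of HSD17B7, a sterol ketoreductase, differed between the knockdown lines by the test of the difference itself (edgeR's joint fit of RS411, RCH and SEM, adjusted p = 0.0498), and the list had 0 such calls in 20 of the 27 fits that left out 1 library. HSD17B7 was the only gene of the 28 called for this difference, a smaller share than the 7.93% of all genes. Its log2 fold change with sh2 was -0.45 ± 0.15 in RS411, 0.21 ± 0.18 in RCH and -0.42 ± 0.07 in SEM. In RCH it had 11.3, 12.8 and 11.9 CPM with sh2, against 12.1, 9.03 and 9.83 CPM with NT, and in RS411 18.8, 15.9 and 24.2 CPM with sh2, against 25.4, 25.9 and 29.3 CPM with NT. The annotation lists 2 pseudogenes by its name, and their part was not tested.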

How the results depend on the processing

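No called gene changed sign under any alternative run. The share of all genes called moved with the setting too. With the block it went from 0.478% to 5.41% in RS411 sh5 against NT, and from 7.93% to 19.8% for the difference of the sh2 response. The counts below therefore describe the fits and are not read as a result about the list. For the fits without the low-count filter, with RLE factors or with 2 arms alone, the share of all genes called is not given here. The same is true of the blocked fits of RCH and Reh, so these counts cannot be set beside a background. Of the calls per gene, those in SEM sh2 stayed past the threshold in 200 of their alternative fits and lost it in 16, and those in SEM sh5 in 113 and 19. The same counts were 63 and 21 for SEM sh2 against sh5, 209 and 31 for the mean sh2 response, and 20 and 10 for the mean sh5 response. Without the low-count filter the number of genes of the list called was 6 in RS411 sh2 against NT, 6 in RS411 sh2 against sh5, 1 in RS411 sh5, 2 in RCH sh2 against NT, 2 in RCH sh2 against sh5, 18 for the mean sh2 response, 4 for the mean sh5 response and 6 for the difference of the sh2 response, where RLE factors gave 2. DESeq2 called 5, 2 and 1 in the 3 RS411 comparisons (sh2 against NT, sh2 against sh5, sh5 against NT), and the 2 arms alone gave 1 in RS411 sh5. With the replicate number as a block the counts were 22, 16 and 2 in these RS411 comparisons, 12 in SEM sh2 against sh5, 21 and 3 for the mean sh2 and sh5 responses, and 10 and 1 for the differences of the sh2 and sh5 responses. In RCH, where the numbers did not pair the sh2 libraries, it gave 3 for sh2 against NT and 1 for sh2 against sh5. In Reh, with too few pairs to decide, it gave 1 for EK against EV (STARD4). In the other comparisons the block moved no count by more than 1.5 times, and in 697 it gave 0 with both tools. Leaving out 1 library at a time gave 0 to 11 calls in RS411 sh2 against NT, 0 to 8 in RS411 sh2 against sh5, 2 to 7 in SEM sh2 against sh5, 7 to 12 in SEM sh5, 4 to 19 for the mean sh2 response, 0 to 1 for the mean sh5 response, 0 to 5 for the difference of the sh2 response and 0 to 1 for that of the sh5 response; the cause was not tested. Where a library is left out of Reh, an arm of 1 sample is assumed to vary like the others. Depth limits the lowest genes: SCD in Reh had 0 or 1 read.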
